A study of Homo sapiens with 6 samples.

Results

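The transcripts of 10 genes of cell-cell junctions were followed in 6 clones derived from KYSE150, an established cell line of human squamous carcinoma of the oesophagus. The genes were the classical cadherins CDH1, CDH2 and CDH3, the adhesion molecule gene EPCAM, the claudins CLDN1, CLDN4 and CLDN7, and OCLN, F11R and TJP1 of the tight junction. They were chosen by name, through the RefSeq symbol of each Entrez gene ID, out of 40448 gene IDs. In each library 1 value per gene was given, on a log2 scale of RPKM (reads scaled to transcript length and library size), which is a level per length. The control group was 3 clones, numbered 1, 4 and 5, that carried the pIRES2-EGFP vector (mock). The other group was 3 clones, numbered 1, 6 and 17, that carried a vector expressing human NCCRP1. All 6 were stable transfectants of the same line, each library came from a single clone, and no source used here names the promoter that drives NCCRP1. The names of the deposited data carry a number, 15 or 14, that is here read as the sequencing run. That reading rests on the names alone. Run 15 held mock clone 1, mock clone 4 and NCCRP1 clone 1, while the other three libraries belonged to run 14. The p-values measure the spread between these clones only.

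Classical cadherins are calcium-dependent membrane proteins that hold neighbouring cells together at adherens junctions, where their cytoplasmic tails bind catenins that link to actin. E-cadherin (CDH1) and P-cadherin (CDH3) are typical of stratified squamous epithelium, and N-cadherin (CDH2) of mesenchymal and neural cells, so the balance of CDH1 and CDH2 is often read in carcinomas. Tight junctions seal the space between epithelial cells. Their strands are built from claudins, with occludin (OCLN) and junctional adhesion molecule A (F11R) beside them and the scaffold ZO-1 (TJP1) beneath.

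Promoter sequence was taken from RefSeq (build GRCh38.p14), in windows of 250 bases before each annotated start, for the 6 members matched (CDH2, CLDN1, CLDN4, CLDN7, OCLN and TJP1, with 12 windows). CDH1, CDH3, EPCAM and F11R had no entry. These coordinates are not those of the hg19 build named for the deposited values. Windows were searched on both strands for CACCTG, the E-box bound by the SNAI and ZEB repressors of epithelial genes, for the GC box GGGCGG and for AACNGGTT, a motif of the grainyhead-like factors. The first was present in 17.5%, the second in 42.6% and the third in 1.49% of all 35116 RefSeq windows of this length. Windows are shown for a claudin with a high level (CLDN7), a claudin listed at 0 (CLDN1) and the scaffold gene TJP1, only as far as no GENCODE v29 exon of the same gene overlaps them. All lie on the minus strand and are written 5′ to 3′ in the direction of transcription, at chr17:7263214-7263463, chr3:190322476-190322696 and chr15:29969050-29969299. Capitals mark the motifs found.
CLDN7: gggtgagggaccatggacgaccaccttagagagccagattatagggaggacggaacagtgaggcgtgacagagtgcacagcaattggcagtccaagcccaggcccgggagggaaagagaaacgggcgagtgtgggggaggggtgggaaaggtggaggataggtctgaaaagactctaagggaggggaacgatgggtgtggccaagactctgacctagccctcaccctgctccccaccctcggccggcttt
CLDN1: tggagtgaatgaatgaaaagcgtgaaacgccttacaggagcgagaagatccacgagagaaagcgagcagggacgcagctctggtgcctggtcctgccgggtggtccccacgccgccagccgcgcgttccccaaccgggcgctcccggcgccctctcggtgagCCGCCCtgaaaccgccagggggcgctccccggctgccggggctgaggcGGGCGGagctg
TJP1: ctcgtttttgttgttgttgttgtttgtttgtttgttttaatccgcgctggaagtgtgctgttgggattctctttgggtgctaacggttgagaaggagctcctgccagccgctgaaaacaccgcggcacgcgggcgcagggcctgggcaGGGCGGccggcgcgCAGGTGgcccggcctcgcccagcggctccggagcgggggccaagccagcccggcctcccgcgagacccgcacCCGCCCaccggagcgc

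The CLDN7 window shown held none of the 3 motifs, the CLDN1 window held 2 GC boxes and the TJP1 window shown held 2 GC boxes and 1 E-box. The windows at other TJP1 starts held 0 E-boxes each, and 0, 1 and 3 GC boxes. A second annotated start of CLDN7 had 4 E-boxes in its 250 bases, the most of the 12 windows. OCLN had 1 E-box before each of its 2 starts, and CLDN4 had none. These windows of CLDN7, OCLN and CLDN4 begin inside a GENCODE v29 exon of the same gene, so they are not shown whole. The stretches of 30 bases below hold 2 of the CLDN7 E-boxes (chr17:7262482-7262511, minus strand) and the E-box of the first OCLN window (chr5:69492499-69492528, plus strand).
CLDN7 second start: ccctacatatactCAGGTGcgcccCACCTG
OCLN: ctcccatccgagtttCAGGTGaattggtca

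The AACNGGTT motif was in none of the 12 windows, which says only that these letters are not there. GC content in the 250 bases ranged from 34.8% in a TJP1 window to 71.2% at the second start of CLDN7, with 42% in a CDH2 window, 58.8% for CLDN4 and 68.8% for CLDN1, against a median of 58.0% over all windows. A match is a description of the sequence, and no binding was measured in these clones.

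The libraries had 12477 to 12821 genes above 0, and their depth, estimated from whole-read steps in the values of microRNA genes, was 12290000 to 18070000 reads. At the depth chosen, only 23.4% to 33.1% of the microRNA values used lay near a whole step, depending on the library. NCCRP1 was listed at 0 in each mock clone and at 6.19, 8.07 and 6.71 in NCCRP1 clones 1, 6 and 17. All 10 squamous markers looked up were tested, and KRT5 was the highest in every clone. Their summed level was 1681 to 2101 RPKM in mock and 1090 to 2309 RPKM in NCCRP1 clones, of which KRT5 made up the largest share. Means of 8 of the 10 were lower in the NCCRP1 clones (median difference -0.486), with no overlap for KRT15 (-1.43) and PKP1 (-0.31), and none passed (lowest limma adjusted p = 0.540). Of markers of other cells, 7 of 8 fibroblast, 6 of 7 endothelial and 5 of 6 immune genes were listed at 0 in every library, PDGFRB, PECAM1 and PTPRC among them. The exceptions were COL1A1, at 1.32 to 2.57, CSF1R, at 1.99 to 2.43, and CDH5, above 0 only in NCCRP1 clone 6 (0.66). CSF1R was lower in every NCCRP1 clone than in every mock clone (limma adjusted p = 0.83). Simple-epithelial keratins and MUC1 summed to 392.6 to 505.7 RPKM in mock and 552.7 to 723.7 RPKM in NCCRP1 clones. KRT19 and KRT20 were listed at 0, and the lowest limma adjusted p of the 4 tested genes was 0.341. KRT7, KRT8 and KRT18 did not overlap between groups. The groups thus did not overlap for 3 of these 4, for 2 of the 10 squamous markers and for CSF1R, against 12.8% of all genes. The part of these markers in the results below was not tested.

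Of the 10 genes, 8 were above 0 in every clone of both groups, and none of these passed the test for a difference. CDH3, CLDN4, CDH1 and CLDN7 lay at 6.52 to 8.34 log2 RPKM in every clone, EPCAM and F11R at 5.52 to 6.11, TJP1 at 4.78 to 5.06 and OCLN at 1.92 to 2.48. CDH2 and CLDN1 were listed at 0 in all 6 libraries. No value below 0 was given, so a listed 0 can stand for any level up to 1 RPKM, and it can also be a missing estimate, since the housekeeping genes TPT1 and UBB were listed at 0 too. By limma with Benjamini-Hochberg adjustment over all 12737 tested genes, 0 of the 8 tested members rose or fell, against 0.102% of all genes. Unadjusted p was under 0.05 for 0 of the 8, against 7.33% of all genes. The groups overlapped for each of the 8, whereas they did not overlap for 12.8% of all genes. Means were higher in the NCCRP1 clones for 4 of the 8, against 46.7% of all genes. The median difference of the 8 was -0.015 on the log2 scale and that of all genes -0.0157. The median size of the difference, regardless of sign, was 0.0761 for the 8 and 0.141 for all genes, which were not matched for level. The median SD over the 6 clones was 0.243 for the 8 and 0.226 for genes above 0 in all 6 libraries.

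**Figure D1:**
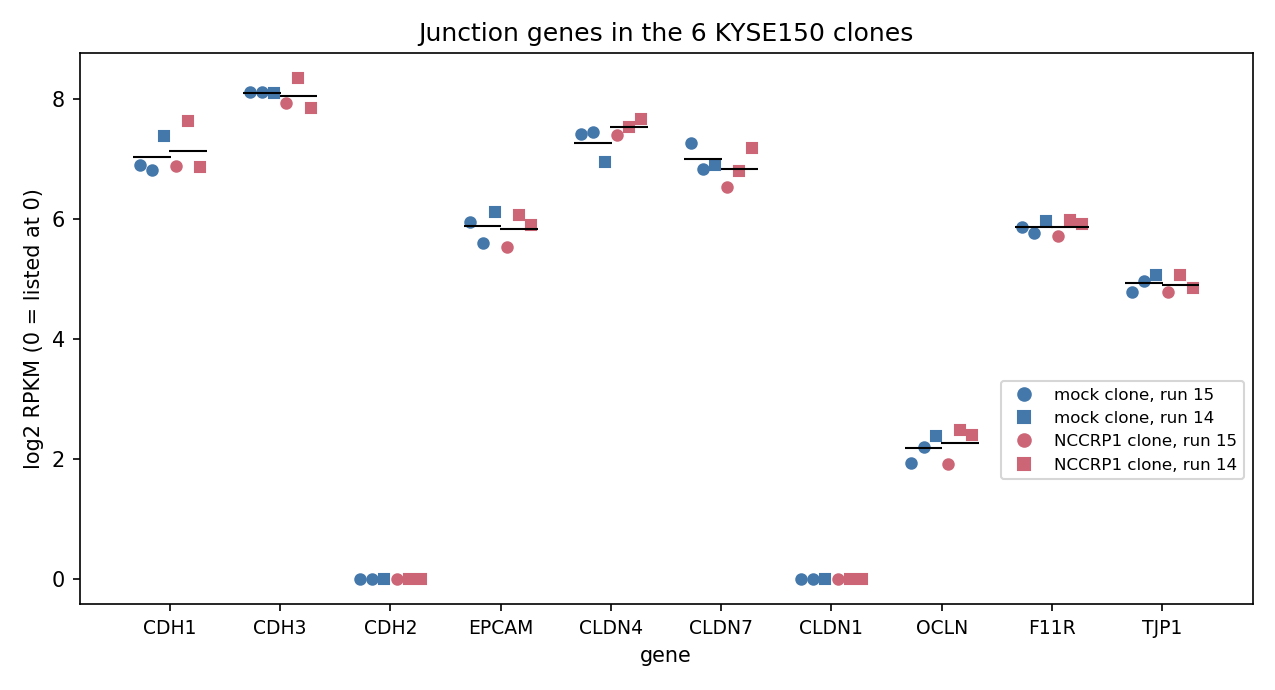
Log2 RPKM of the 10 junction genes (vertical axis) in each clone, with mock clones in blue and NCCRP1 clones in red, circles for run 15, squares for run 14 and black lines for group means. The groups overlap for each of the 8 genes above 0, and CDH2 and CLDN1 are listed at 0 in all 6 clones.

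CDH1, which encodes E-cadherin, had log2 levels of 6.89, 6.81 and 7.37 in mock clones 1, 4 and 5, against 6.88, 7.63 and 6.86 in NCCRP1 clones 1, 6 and 17. Thus 1 clone of each group was high, mock 5 and NCCRP1 6, and the other four lay within 6.81 to 6.89. The means were 7.02 ± 0.31 in mock and 7.13 ± 0.44 in NCCRP1 clones (SD, n = 3 each), a log2 difference of 0.10 (SE 0.23, limma adjusted p = 0.983). The 95% interval of that difference ran from 0.752-fold to 1.53-fold. Within run 15 the NCCRP1 clone differed by 0.035 from the mock clones, and within run 14 the difference was -0.13.

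CDH3, which encodes P-cadherin, stood at 8.10, 8.11 and 8.09 in mock clones 1, 4 and 5, against 7.92, 8.34 and 7.85 in NCCRP1 clones 1, 6 and 17. The mock clones were nearly equal, and the NCCRP1 clones lay on both sides of them. The difference was -0.063 (SE 0.18, limma adjusted p = 0.989; 95% interval 0.724-fold to 1.27-fold). Within run 15 it was -0.18 and within run 14 it was 0.0030. CDH3 and CDH1 lie next to each other in RefSeq order on chromosome 16.

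In every clone the level of CDH3 was above that of CDH1, by 2.32, 2.46 and 1.65 times in mock clones 1, 4 and 5 and by 2.06, 1.64 and 1.99 times in NCCRP1 clones 1, 6 and 17. Such a ratio within a library does not depend on how libraries are scaled to each other. On the log2 scale CDH1 minus CDH3 was -1.08 ± 0.31 in mock and -0.91 ± 0.18 in NCCRP1 clones (SD, n = 3 each; exact permutation test, two-sided, p = 0.5, where 0.1 is the smallest value 3 against 3 allows). No ratio to CDH2 could be given, because CDH2 was listed at 0 throughout.

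EPCAM, an epithelial surface adhesion molecule known to associate with claudins, was at 5.94, 5.60 and 6.11 in mock and 5.52, 6.07 and 5.90 in NCCRP1 clones. Each group held 1 clone near 5.5 to 5.6, mock 4 and NCCRP1 1. The difference was -0.054 (SE 0.18, limma adjusted p = 0.989; 95% interval 0.727-fold to 1.28-fold), with -0.25 within run 15 and -0.13 within run 14.

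CLDN4, a barrier-forming claudin, reached 7.42, 7.45 and 6.95 in mock clones 1, 4 and 5, against 7.39, 7.53 and 7.66 in NCCRP1 clones 1, 6 and 17. Mock clone 5 was the low one, and the other five lay within 7.39 to 7.66. The means of 7.27 ± 0.28 and 7.53 ± 0.14 (SD, n = 3 each) gave a difference of 0.26 (SE 0.18, limma adjusted p = 0.861), the largest in size of the 8. Its 95% interval ran from 0.907-fold to 1.58-fold. The difference was -0.040 within run 15 and 0.65 within run 14, where mock clone 5 was the lone control, and 0.096 without that clone.

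CLDN7 had the opposite sign. Its values were 7.26, 6.82 and 6.89 in mock and 6.52, 6.80 and 7.18 in NCCRP1 clones, so mock clone 1 was the highest and NCCRP1 clone 1 the lowest. The difference was -0.16 (SE 0.20, limma adjusted p = 0.953; 95% interval 0.664-fold to 1.21-fold). Within run 15 it was -0.52 and within run 14 it was 0.10. CLDN7 overlaps ELP5 in RefSeq, and reads of the 2 genes could be shared.

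OCLN, the gene of occludin, was at 1.93, 2.21 and 2.39 in mock and 1.92, 2.48 and 2.39 in NCCRP1 clones. Clone 1 of either group was the lowest of its group. The difference was 0.089 (SE 0.21, limma adjusted p = 0.984; 95% interval 0.767-fold to 1.48-fold), -0.15 within run 15 and 0.047 within run 14. RefSeq lists a pseudogene copy, OCLNP1, so reads could be split between the copies and the level of OCLN is uncertain.

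F11R and TJP1 varied least over the 6 clones, with SDs of 0.11 and 0.13. F11R, the junctional adhesion molecule A gene, was at 5.86, 5.76 and 5.96 in mock and 5.71, 5.98 and 5.91 in NCCRP1 clones (difference 0.0046, SE 0.14, limma adjusted p = 0.997). Its 95% interval, 0.809-fold to 1.24-fold, was the narrowest of the 8. TJP1, the ZO-1 gene, was at 4.78, 4.96 and 5.06 against 4.78, 5.06 and 4.85, a difference of -0.035 (SE 0.14, limma adjusted p = 0.991; 95% interval 0.783-fold to 1.22-fold). Within runs 15 and 14 the differences were -0.10 and -0.016 for F11R and -0.083 and -0.11 for TJP1. Over all 8 tested members the exact permutation test of single genes gave p from 0.3 to 1, two-sided.

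**Figure D2:**
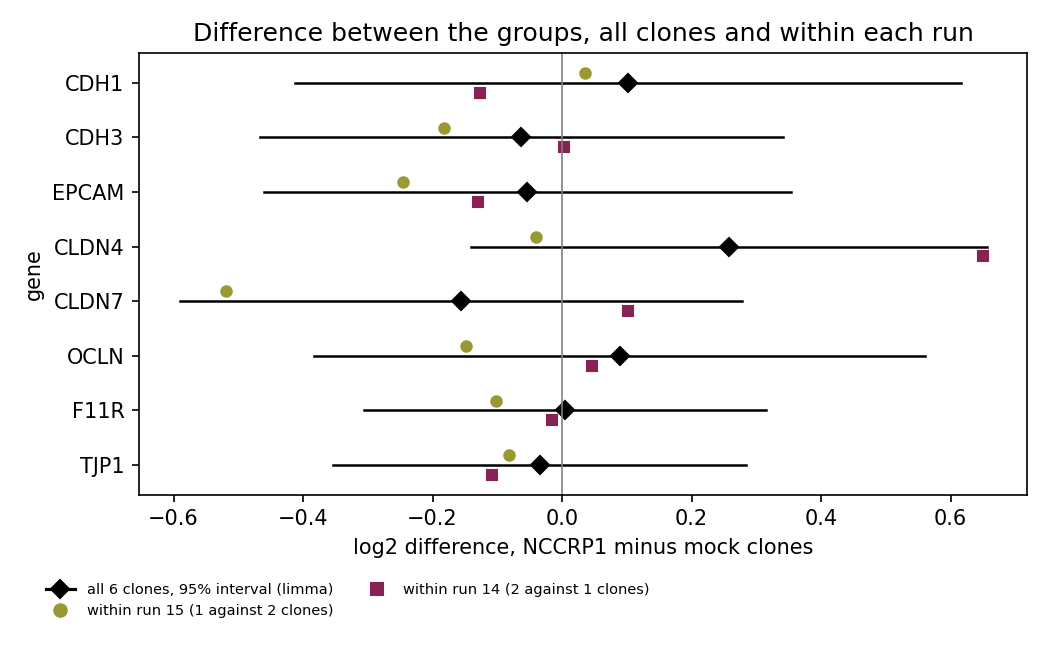
Log2 difference, NCCRP1 minus mock clones (horizontal axis), with the limma 95% interval as a line the difference over all 6 clones as a diamond, and the differences within run 15 (circle) and run 14 (square). Every interval includes 0, and the within-run values of CLDN4 (-0.040 and 0.65) and CLDN7 (-0.52 and 0.10) lie far apart.

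Counting noise was small beside these spreads. From the estimated read totals and transcript lengths (GENCODE v29, longest per gene), OCLN rested on about 301 to 570 reads per library and EPCAM on about 1060 to 1905. The Poisson SD this implies was at most 0.083 for OCLN and 0.044 for EPCAM on the log2 scale, against SDs over the 6 clones of 0.25 and 0.24. It covers counting error only.

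Since RPKM is per length, levels can be set side by side between genes. CDH3 was first with a mean log2 level of 8.07 over the 6 clones, above 97.5% of the 11927 genes that were above 0 in all libraries. CLDN4 (7.40), CDH1 (7.07) and CLDN7 (6.91) followed, and each was above at least 94.7% of those genes. Neighbours in the order from CLDN4 to CLDN7 did not differ beyond their spread. CLDN4 exceeded CDH1 by 0.32 ± 0.48 (SD over 6 clones) and in 4 of 6 clones, and CDH1 exceeded CLDN7 by 0.16 ± 0.48 and in 3 of 6. EPCAM and F11R had the same mean of 5.86, with a step of 0.0045 ± 0.14. The steps from CDH3 to CLDN4 (0.67 ± 0.32), from CLDN7 to F11R (1.05 ± 0.24), from EPCAM to TJP1 (0.94 ± 0.20) and from TJP1 to OCLN (2.70 ± 0.16) had the same direction in 6 of 6 clones. OCLN, at 2.22, was above 22.9% of the genes.

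In NCCRP1 clone 6 all but 1 of the 8 were above their own mean over the clones, and in NCCRP1 clone 1 none was. The other libraries were mixed, with 4 of 8 above in mock clone 1, 3 in mock clone 4, 6 in mock clone 5 and 5 in NCCRP1 clone 17. With group and run as terms in limma, 7 of the 8 were higher in run 14, against 57.1% of all genes. The run coefficients (run 14 minus run 15) were 0.44 for CDH1 (SE 0.21), 0.42 for OCLN (SE 0.17) and 0.40 for EPCAM (SE 0.14), and 0 of the 8 passed (lowest limma adjusted p = 0.291). Unadjusted p for run was under 0.05 for 2 of the 8, OCLN and EPCAM, and for 14.1% of all genes, of which 0 passed after adjustment, a share of 0%. In both groups alike CDH1, EPCAM, OCLN, TJP1 and F11R were higher in run 14: EPCAM by 0.34 in mock and 0.46 in NCCRP1 clones, OCLN by 0.32 and 0.52. Each clone was read in 1 run, so the run and the 3 clones in it cannot be told apart.

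**Figure D3:**
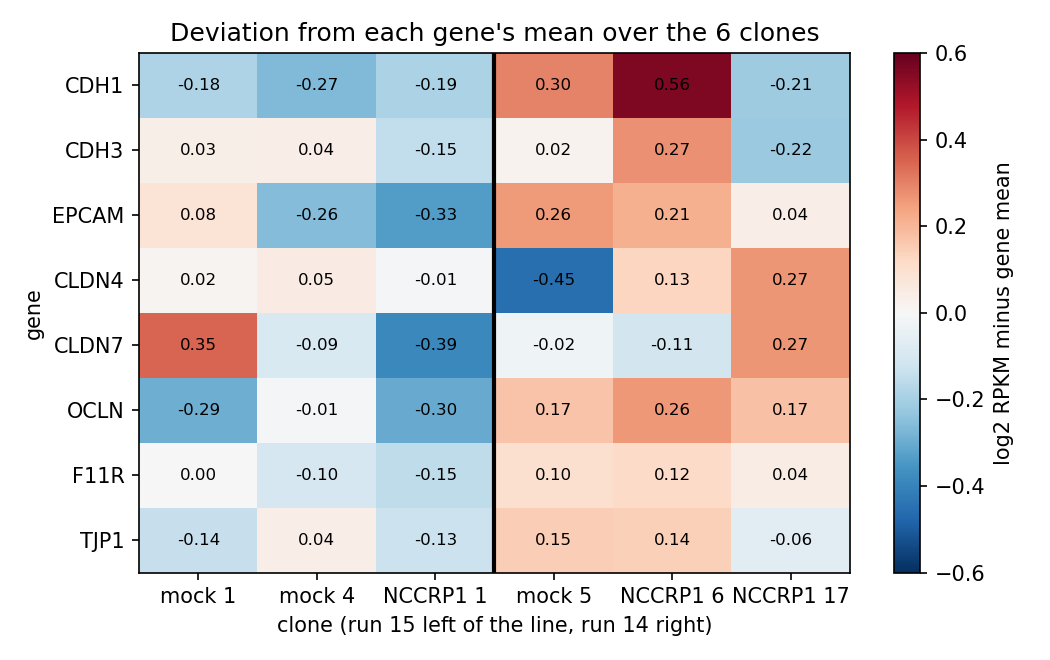
Deviation of each gene's log2 RPKM from its mean over the 6 clones (colour and printed value), genes in rows and clones in columns, run 15 left of the black line and run 14 right. NCCRP1 clone 1 is below the mean for each of the 8 genes, and mock clone 5 (-0.45) stands low for CLDN4.

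EPCAM and F11R had the closest profiles of the 28 pairs of members, with a Pearson correlation of 0.97 over the 6 clones. OCLN and TJP1 followed (0.814), then CDH1 and TJP1 (0.797). CDH1 and CDH3 stood at 0.74. The 2 claudins ran apart from several members. CLDN4 stood at -0.413 with TJP1 and -0.324 with CDH1, CLDN7 at -0.213 with TJP1 and -0.199 with CDH1, and the claudins at 0.217 with each other. The points share the 2 runs and are only 6. Over all 5417 genes with a mean log2 level of at least 2, a value above 0 in every library and an SD of at least 0.2, the genes most like CDH1 included MCM6, a subunit of the replicative helicase (0.982), and CFL2, an actin-severing cofilin (0.979). CFL2 was at 3.07 and 3.14 in mock clone 5 and NCCRP1 clone 6, the clones with high CDH1, and at 2.51 to 2.54 in the other four. It was picked for its likeness to CDH1 in these same clones, so this match follows from the choice. The genes most like EPCAM were FBXL17, an F-box protein gene (0.988), WDR5CP (0.976) and ELOVL5, a fatty acid elongase gene (0.974).

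Genes around CDH3 and CDH1 on chromosome 16 were low in NCCRP1 clone 17. Of the 30 expressed coding genes nearest to CDH1 in RefSeq order, from PSKH1 to WWP2, 26 were below their own mean in that clone, and their median deviation was -0.39. It was 0.23 for mock clone 5, 0.21 for mock clone 1 and 0.055 for NCCRP1 clone 6. In mock clone 1 only 4 of the 30 were below their mean, while CDH1 itself deviated by -0.18. CDH1 and CDH3 deviated by -0.21 and -0.22 in NCCRP1 clone 17 and by 0.56 and 0.27 in NCCRP1 clone 6. Among the nearest neighbours, ZFP90, a zinc finger gene, stood at 2.84, 2.81 and 3.70 in mock and 2.78, 2.61 and 2.21 in NCCRP1 clones. HAS3, a hyaluronan synthase gene, stood at 2.51, 2.32 and 3.02 against 2.24, 1.72 and 1.79 (limma adjusted p = 0.457). The 30 neighbours differed by -0.25 between the groups, and with this subtracted the difference of CDH1 was 0.35 and that of CDH3 0.18 (limma adjusted p of 0.708 and 0.867). The other members' neighbours differed between the groups by less than 0.1.

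**Figure D4:**
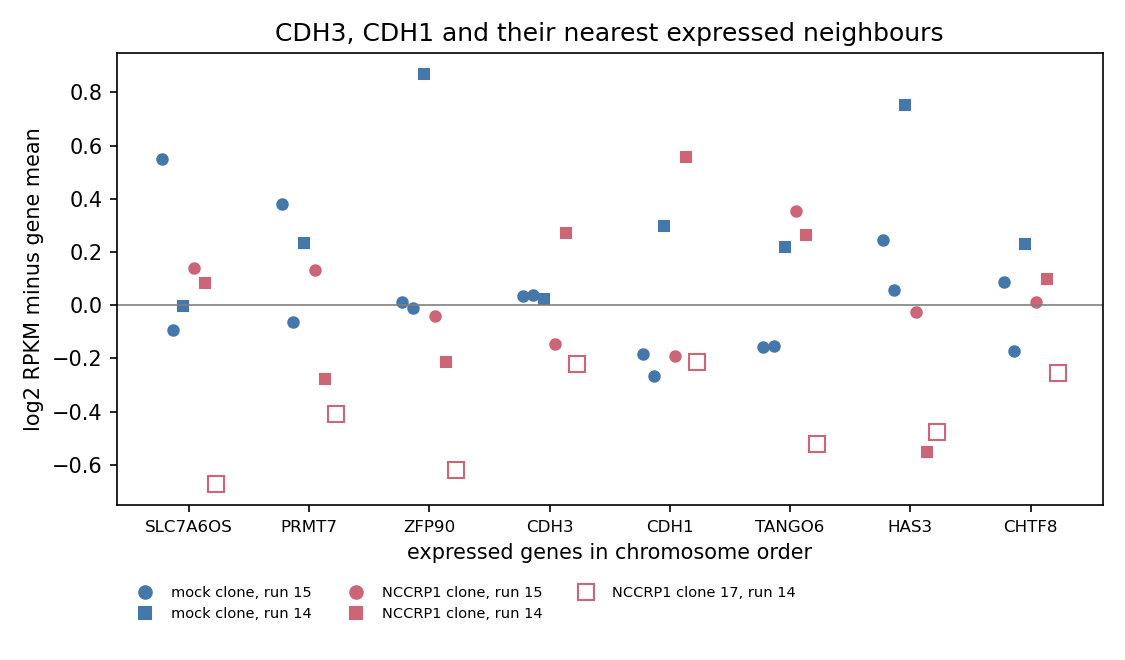
Deviation of log2 RPKM from each gene's mean over the 6 clones (vertical axis) for CDH3, CDH1 and the 3 nearest expressed coding genes on either side, in chromosome order. NCCRP1 clone 17 (open squares) is below 0 for all 8 genes, while NCCRP1 clone 6 is highest for CDH3 and CDH1.

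Other junction genes were taken from 7 lists with 114 entries, of which 68 were tested. None of the 68 rose or fell after adjustment over all genes by limma. Unadjusted p was under 0.05 for 8 of them (11.8%, against 7.33% of all genes), and the groups did not overlap for 14 (20.6%, against 12.8% of all genes), 7 in each direction. No test of the lists as a whole was made.

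Among other cadherins, 14 of 17 were listed at 0 in every library, and both tested genes had lower means in the NCCRP1 clones. CDH24 was at 4.83, 4.61 and 4.58 in mock and 4.00, 4.07 and 4.46 in NCCRP1 clones, with no overlap (difference -0.50, SE 0.16, limma adjusted p = 0.451). CDH13, which lacks a cytoplasmic tail, was between 0 and 0.73 in every clone (difference -0.045, limma adjusted p = 0.994).

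Catenins and adherens junction partners had 17 of 21 tested, 10 with a higher and 7 with a lower mean (median difference 0.0409). JUP, the gene of plakoglobin, which binds cadherins of both adherens junctions and desmosomes, was highest, at 7.03, 6.97 and 6.99 in mock and 7.16, 6.84 and 7.15 in NCCRP1 clones. CTNNA1, the alpha-catenin gene, was at 6.46 ± 0.049 and 6.53 ± 0.16 (SD, n = 3 each). The lowest p belonged to CAMSAP3, whose product anchors microtubule minus ends, at 3.19 ± 0.080 and 2.80 ± 0.21 (limma adjusted p = 0.649), with no overlap. PVR and NECTIN1, of the nectin group of adhesion molecules, differed by 0.25 and -0.21 (limma adjusted p of 0.769 and 0.869). Of the 17 tested, 1 was above without overlap (PVR) and 2 were below, CAMSAP3 among them, against 12.8% of all genes in either direction.

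Other claudins were mostly listed at 0, 14 of 20, and the 5 tested had lower means in the NCCRP1 clones (median -0.25). CLDN3 was at 1.37, 1.07 and 0.86 in mock and 0.43, 0.25 and 0.74 in NCCRP1 clones, without overlap and near the floor of the values (limma adjusted p = 0.541). CLDN12 differed by -0.43 and CLDN15, the highest of the list, by -0.22 (limma adjusted p of 0.752 and 0.928).

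Of the other tight junction membrane proteins 7 of 12 were tested, 2 with a higher and 5 with a lower mean. LSR, the angulin of tricellular contacts, averaged 6.80 ± 0.13 in mock against 7.06 ± 0.25 in NCCRP1 clones (SD, n = 3 each), and CRB3, a polarity protein gene, at 5.64 ± 0.016 and 5.47 ± 0.14. MARVELD2, the tricellulin gene, differed by 0.16 (limma adjusted p of 0.832, 0.883 and 0.927 for the 3 genes).

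Scaffolds and polarity proteins had 19 of 22 tested, 13 with a higher mean (median 0.101). Every NCCRP1 clone was above every mock clone for 3 of them, AMOTL2, TJP3 and SYMPK (the last named after its values were seen), and below for ARHGEF2. Among all genes the share without overlap was 12.8%. For SYMPK the groups barely parted, with 5.699 in NCCRP1 clone 1 against 5.693 in mock clone 1. AMOTL2, an angiomotin family scaffold, was at 6.48, 6.64 and 6.22 against 6.82, 7.19 and 6.90, a difference of 0.52 (SE 0.17, limma adjusted p = 0.434). TJP3, the ZO-3 gene, was at 3.80, 3.87 and 3.70 against 3.90, 4.36 and 4.57 (0.49, limma adjusted p = 0.536). Its 30 nearest neighbours on chromosome 19 differed by 0.41 between the groups, and the difference of TJP3 was 0.082 with this subtracted. CGN, the cingulin gene, was at 4.66, 4.82 and 4.39 against 4.77, 5.30 and 5.15 (0.45, limma adjusted p = 0.573), with 1 overlapping clone, and its neighbours differed by -0.011. Within runs 15 and 14 the differences were 0.26 and 0.82 for AMOTL2, 0.070 and 0.765 for TJP3, and 0.031 and 0.84 for CGN. Mock clone 5 was the lone control in run 14. ARHGEF2, a guanine nucleotide exchange factor gene of the tight junction, differed by -0.22 (limma adjusted p = 0.83).

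A list of membrane proteases of the junction, their inhibitors and related surface proteins had 8 of 8 genes tested. SPINT2 and SPINT1, inhibitors of membrane serine proteases, differed by 0.28 and 0.24, and ST14, the matriptase gene, by 0.24 (limma adjusted p of 0.885, 0.875 and 0.813). Within runs 15 and 14 they differed by 0.12 and 0.64 (SPINT2), -0.24 and 0.57 (SPINT1), and 0.027 and 0.53 (ST14). For 7 of these 8 genes the NCCRP1 mean was the higher one (median difference 0.245). The NCCRP1 clones were above without overlap for 2 of the 8, ST14 among them, and below for 0, against 12.8% of all genes in either direction.

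Of 14 transcription factors known to act on CDH1, the repressor genes SNAI1, ZEB1 and ZEB2 were listed at 0 in every library, as was GRHL3. SNAI2, a repressor, was at 2.14, 2.30 and 2.43 in mock and 2.16, 1.78 and 1.70 in NCCRP1 clones (limma adjusted p = 0.71). TCF3 and TWIST1, also of this list, were named after their values were seen. TCF3 was at 4.917, 4.743 and 4.65 in mock and 4.985, 4.937 and 5.067 in NCCRP1 clones, higher without overlap. The groups did not overlap for 12.8% of all genes. TWIST1 lay between 0 and 0.81. KLF5, an epithelial factor, had the lowest p of all 68, at 3.99, 3.94 and 4.34 against 3.28, 3.43 and 3.56 (difference -0.67, SE 0.16, limma adjusted p = 0.257), with neighbours on chromosome 13 differing by -0.20. OVOL2, a repressor of mesenchymal genes, was at 3.89 ± 0.027 and 3.61 ± 0.10 (limma adjusted p = 0.734), with no overlap. Of the 10 tested genes of this list, 1 was above without overlap (TCF3) and 2 were below (KLF5 and OVOL2). GRHL2, an activator of CDH1 and CLDN4, was at 5.37 ± 0.086 and 5.39 ± 0.13, and ELF3 at 7.01 ± 0.056 and 7.20 ± 0.51 (SD, n = 3 each).

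**Figure D5:**
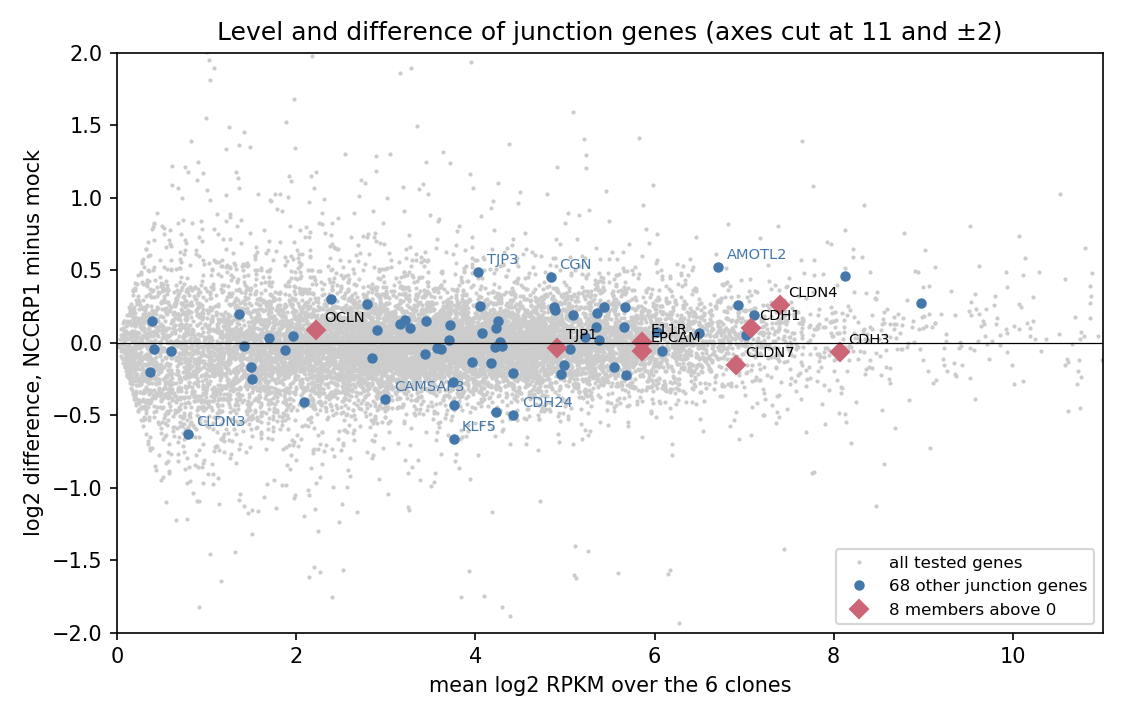
Mean log2 RPKM over the 6 clones (horizontal axis) against the log2 difference, NCCRP1 minus mock clones (vertical axis), for all tested genes (grey), 68 other junction genes (blue) and the 8 members above 0 (red). The axes end at 11 and ±2, and the members lie between -0.16 (CLDN7) and 0.26 (CLDN4).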

How the data were processed

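Total RNA of each clone was freed of ribosomal RNA and made into libraries with an Ion Total RNA-Seq kit, per the labels' protocols. Per the submitters' processing notes, hg19 and bedtools 2.25.0 are named with no role. No aligner is named there (not given in the sources used here). The authors deposited 1 value per Entrez gene ID, called RPKM in the file headers and here read as log2 RPKM, with genes under 1 RPKM as 0. Read as log2, the values summed to 1083910 to 1102210 per library after weighting by transcript length in kilobases, and as natural logarithms to at least 11006400. Symbols came from RefSeq (GRCh38.p14) for 37997 IDs. Antisense and overlapping genes could not be told apart, because no source used here says whether counting used strand.

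Genes above 0 in at least 3 of 6 libraries were compared with limma 3.58.1 in R 4.3.3 (trend and robust, two-sided, Benjamini-Hochberg, threshold 0.05). The fit was tested on simulated data, drawn independently for each gene with no run effect and no shifts shared by neighbours, unlike these clones. Intervals are limma's 95% intervals, per gene and not adjusted. Neighbour shifts are median deviations of the 30 nearest coding genes with a mean log2 of at least 2. All 10 members were named. Each list named up to 3 genes with the lowest p and 2 with the highest level, and CDH1 and EPCAM the 3 genes of highest correlation; CLDN1, planned too, was at 0. Results of 2 genes that this rule names are not reported here. The members, lists and tests were chosen with earlier results of these data known. Alternatives were other filters, pseudocounts, scalings, the run as a term, neighbour shifts and leaving out each clone.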

Additional observations from a re-analysis of the deposited data

How the results depend on the processing

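The 8 members were refitted under 15 alternatives, and 0 of the 120 values passed (lowest limma adjusted p = 0.626). The sign of 101 stayed, and 19 turned, all within 0.185 of 0. The other filters and robust=FALSE leave a member's difference as it is, so their signs could not turn. They count among the 101, which is therefore no measure of stability. The cause of the turns was not tested. CLDN4 and CLDN7 did not turn, but CLDN7 came down to -0.00074 without NCCRP1 clone 1 and -0.021 without mock clone 1 (range without 1 clone -0.33 to -0.00074), and CLDN4 was at 0.096 to 0.35. In the fit that had the run as a term, CDH1 was at -0.046, OCLN at -0.051 and F11R at -0.059. With the neighbour shift subtracted, CDH3 was at 0.18, OCLN at -0.0078 and F11R at -0.040, and quantile normalization put F11R at -0.0061. Leaving out 1 clone at a time gave -0.15 to 0.28 for CDH1, -0.21 to 0.032 for CDH3, -0.20 to 0.099 for EPCAM, -0.034 to 0.26 for OCLN, -0.12 to 0.031 for TJP1 and -0.053 to 0.083 for F11R. CDH1 minus CDH3 differed by 0.053 to 0.34 between the groups without 1 clone.

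Over all genes 13 passed limma in the reported fit. The count was 13 with median centring and 10 with quantile normalization. It was 3 with no filter, 7 above 0 in all 6 libraries, 4 with log2(RPKM + 1) and 1 with log2(RPKM + 0.1). It was 5 with robust=FALSE, 2 with the run as a term and 8 with the neighbour shift subtracted. Without 1 clone it was 1 to 28. It was 4, 24 and 3 without mock clones 1, 4 and 5, and 28, 5 and 1 without NCCRP1 clones 1, 6 and 17. No paired analysis was possible because the groups share only clone number 1, and nothing in the labels ties those 2 clones together. Of the members, OCLN rested on the fewest reads.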
